A study of Mus musculus with 12 samples.

Results

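The genes described here are a set of 50 listed actin cytoskeleton and MARCKS-related genes, read in progenitor B cells with altered Sox4. A listed gene was included when at least 1 probe carrying its symbol, current or synonym, was detected on at least 3 of 12 arrays, and its brightest such probe stood for it. That held for 46 of the 50 listed genes, out of 10259 genes measured in the series. Actg1, Ezr, Arpc3 and Cnn3 had no probe with their symbol in the annotation used and were not analysed here. The 46 genes had 109 named probes, 87 of which were detected on at least 3 arrays.

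Progenitor B cells were taken from the fetal liver of C57BL/6 mouse embryos, and their RNA was hybridised to 12 single-colour Illumina bead arrays, 3 in each of 4 groups. The loss experiment set Sox4fl/fl SE-Cre cells (called SE-Cre below) against Sox4fl/fl cells, and asked which genes change when the floxed Sox4 gene, which both groups carry, is recombined by Cre. The gain experiment used SE-Cre cells that p190 Bcr-Abl, a leukaemia-causing kinase fusion, had immortalized, and set cells labelled HA-Sox4 against cells labelled HA. Both gain groups therefore share the floxed Sox4 gene, SE-Cre and p190 Bcr-Abl. There was no group with SE-Cre and unfloxed Sox4, so effects of SE-Cre itself and of Sox4 loss cannot be told apart. The labels give neither what drives SE-Cre, nor whether HA-Sox4 and HA cells derive from 1 immortalized culture, nor whether the 3 samples of a group were separate animals or cultures. The p-values therefore describe the spread among these samples alone, and that spread may be technical. In bulk RNA, fewer cells of a type and less RNA per cell cannot be told apart.

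Actin monomers polymerize into filaments that are nucleated by the Arp2/3 complex and formins, bundled by crosslinkers, pulled by myosin, stabilized by tropomyosins and cut by proteins of the gelsolin family. MARCKS and its relative MARCKSL1 sit at the inner face of the plasma membrane, where they bind phosphoinositides and actin, and protein kinase C and calcium-calmodulin release them from it. Calpains are calcium-activated proteases that cleave cytoskeletal and adhesion proteins. In lymphocytes the cortical actin network shapes migration, adhesion and receptor signalling.

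Median intensity was between 83.4 and 90.2 on the loss arrays and between 115 and 139 on the gain arrays, and 36.1% to 40% of probes were detected per array. Values below are log2 normalized intensities, normalized within each experiment, so a level in one experiment cannot be set against a level in the other. Precision is limited by the number of arrays. Sox4, the manipulated gene, averaged 4.50 ± 0.21 in SE-Cre cells and 10.61 ± 0.06 in Sox4fl/fl cells (SD, n = 3 each). In the gain experiment it averaged 5.47 ± 0.43 in HA-Sox4 cells and 4.68 ± 0.28 in HA cells (SD, n = 3 each), detected on 3 of 3 HA-Sox4 arrays and on no HA array. That rise was at least 1.18-fold (adjusted p = 0.0326 in limma). Whether this probe reads the transcript behind the HA-Sox4 label was not tested, so the bound does not measure how much Sox4 was restored. Where a probe was detected on none of a group's 3 arrays, the fold is given here as "at least": each of those arrays' values, where lower, was raised to that array's lowest detected signal before the means were compared.

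The members were chosen with earlier results of these data known, so their counts beside those of all genes are descriptive. In the loss experiment, 18 of the 45 tested members had an adjusted p under 0.05 in limma, against 16.4% of all 8902 genes tested. In SE-Cre cells 5 of them were higher and 13 lower, against 7.43% and 8.96% of all genes. Of these, 1 was at least 2-fold higher and 9 were at least 2-fold lower, against 1.63% and 3.13% of all genes. The median log2 difference of the members was -0.23, and that of all genes was 0.02. With all 12 arrays normalized together the split was 2 higher and 13 lower. In the gain experiment, 25 of 46 members (54.3%) passed, 14 higher and 11 lower in HA-Sox4 cells, against 44.1% of all 9221 genes, 21.3% higher and 22.7% lower. The median was 0.03, with -0.05 over all genes. At least 2-fold differences were seen for 7 members that were higher and 5 that were lower, against 7.56% and 3.23% of all genes. Among the 38 members detected on all 12 arrays, 34.2% passed on loss and 52.6% on gain, against 14.8% and 44.1% of all genes detected on all 12. The plot of differences by role shows members at least 2-fold changed in every role except actin itself and the Arp2/3 group.

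**Figure D1:**
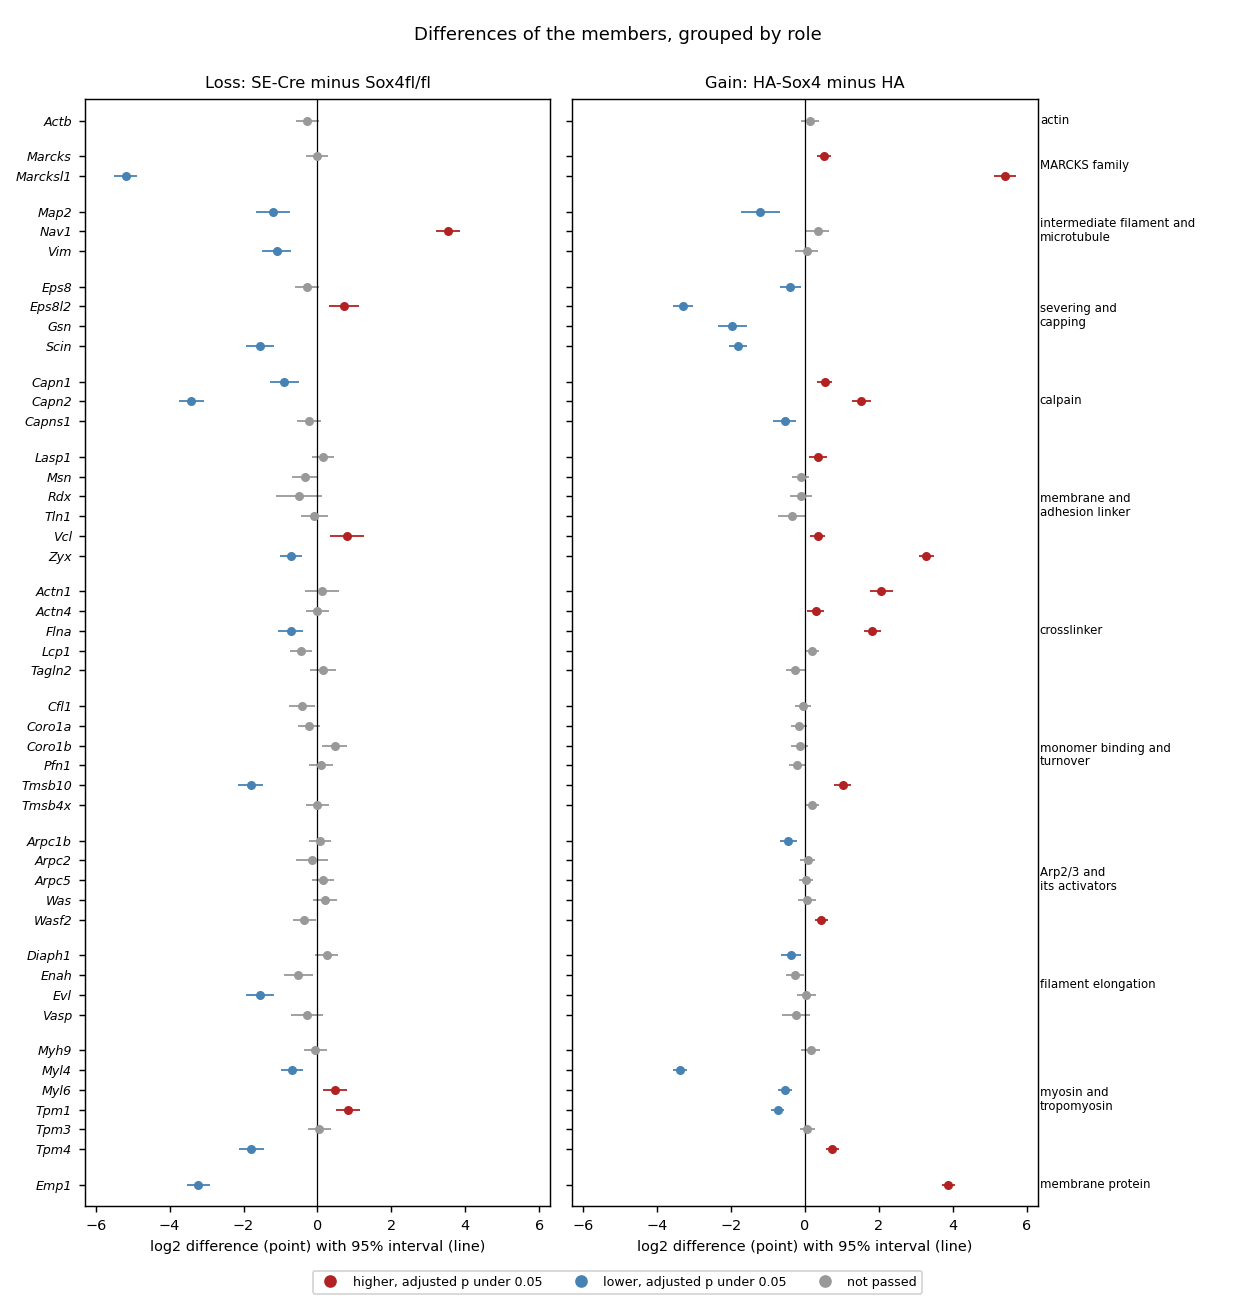
Log2 differences with 95% intervals for the 46 members, grouped by role, SE-Cre minus Sox4fl/fl on the left and HA-Sox4 minus HA on the right. Points are coloured where the adjusted p was under 0.05. Marcksl1 lies at -5.19 on loss and 5.41 on gain, and Gsn was not tested on loss.

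Marcksl1, the MARCKS-like membrane and actin-binding protein, had the largest difference of any member in both experiments. It read 4.97, 5.13 and 4.94 on the SE-Cre arrays, against 10.07, 10.22 and 10.32 on the Sox4fl/fl arrays. The groups did not overlap, and the fall in SE-Cre cells was 36.4-fold (log2 difference -5.19, SE 0.14, adjusted p = 4.74e-10 in limma). On the gain arrays it read 13.35, 13.29 and 13.31 in HA-Sox4 cells, against 8.09, 7.64 and 8.0 in HA cells. It was 42.4-fold higher in HA-Sox4 cells (log2 difference 5.41, SE 0.13, adjusted p = 3.35e-07). The size of the fall depended on the processing: the loss difference was -3.64 without background correction and from the authors' processed values, and the mean of all 4 Marcksl1 probes gave -2.56 on loss and 4.07 on gain. All 4 probes passed in the same direction in each experiment. The 3 dimmer ones were detected on no SE-Cre array, and in HA cells 2 of them on no array and 1 on 1 of 3, so no size is given for them.

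Marcks, the founding member of the family, behaved otherwise. It read 10.85, 10.67 and 10.76 in SE-Cre cells, against 10.86, 10.76 and 10.73 in Sox4fl/fl cells, so the groups overlapped. The log2 difference was -0.02, with a 95% interval from -0.32 to 0.27 (adjusted p = 0.935 in limma). On the HA-Sox4 arrays it read 11.36, 11.29 and 11.40, all above the 10.88, 10.85 and 10.77 of HA cells. The rise was 1.43-fold (log2 difference 0.52, SE 0.08, adjusted p = 0.00216).

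Emp1, a tetraspan epithelial membrane protein, followed Marcksl1 in direction. It read 6.97, 7.27 and 7.03 in SE-Cre cells, against 10.17, 10.37 and 10.38 in Sox4fl/fl cells, a 9.31-fold fall (log2 difference -3.22, SE 0.15, adjusted p = 2.85e-08 in limma). In the gain experiment it read 10.16, 10.24 and 10.20 in HA-Sox4 cells, against 6.28, 6.32 and 6.38 in HA cells. That was a 14.6-fold rise (log2 difference 3.87, SE 0.08, adjusted p = 2.09e-07), and neither pair of groups overlapped. Without background correction the gain difference of Emp1 was 2.79.

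The promoters of the 3 members whose smaller difference of both experiments, past the threshold in each, was largest are shown because Marcksl1 and Emp1 moved together and Scin, described below, fell in both. They are the 250 bases before the RefSeq transcript start in GRCm38.p6, at chr4:129513331-129513580 on the plus strand for Marcksl1, at chr6:135362681-135362930 and chr6:135367243-135367492 on the plus strand for both Emp1 starts, and at chr12:40134229-40134478 on the minus strand for Scin.
Marcksl1: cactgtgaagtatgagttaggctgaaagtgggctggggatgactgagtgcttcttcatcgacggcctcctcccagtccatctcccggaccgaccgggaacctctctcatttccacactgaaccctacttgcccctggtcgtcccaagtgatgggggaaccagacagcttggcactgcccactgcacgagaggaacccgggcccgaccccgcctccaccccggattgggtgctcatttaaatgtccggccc
Emp1, upstream start: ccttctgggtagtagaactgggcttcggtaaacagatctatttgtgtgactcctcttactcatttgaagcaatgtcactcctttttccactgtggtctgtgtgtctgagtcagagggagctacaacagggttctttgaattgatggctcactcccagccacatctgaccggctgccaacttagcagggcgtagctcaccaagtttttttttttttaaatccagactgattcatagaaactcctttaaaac
Emp1, downstream start: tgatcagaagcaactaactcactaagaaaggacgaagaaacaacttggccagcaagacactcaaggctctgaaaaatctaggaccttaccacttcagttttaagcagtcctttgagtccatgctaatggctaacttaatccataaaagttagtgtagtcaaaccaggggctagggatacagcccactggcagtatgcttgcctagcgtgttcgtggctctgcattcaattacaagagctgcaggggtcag
Scin: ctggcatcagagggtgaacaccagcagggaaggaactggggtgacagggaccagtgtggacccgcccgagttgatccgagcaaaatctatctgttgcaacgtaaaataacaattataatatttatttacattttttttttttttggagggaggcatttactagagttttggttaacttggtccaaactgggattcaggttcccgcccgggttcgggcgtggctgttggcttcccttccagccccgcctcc
These windows held no AACAAAG, no AACAATG and no CArG box on either strand, which says only that these letters are not there, so no base is in capitals.

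**Figure D2:**
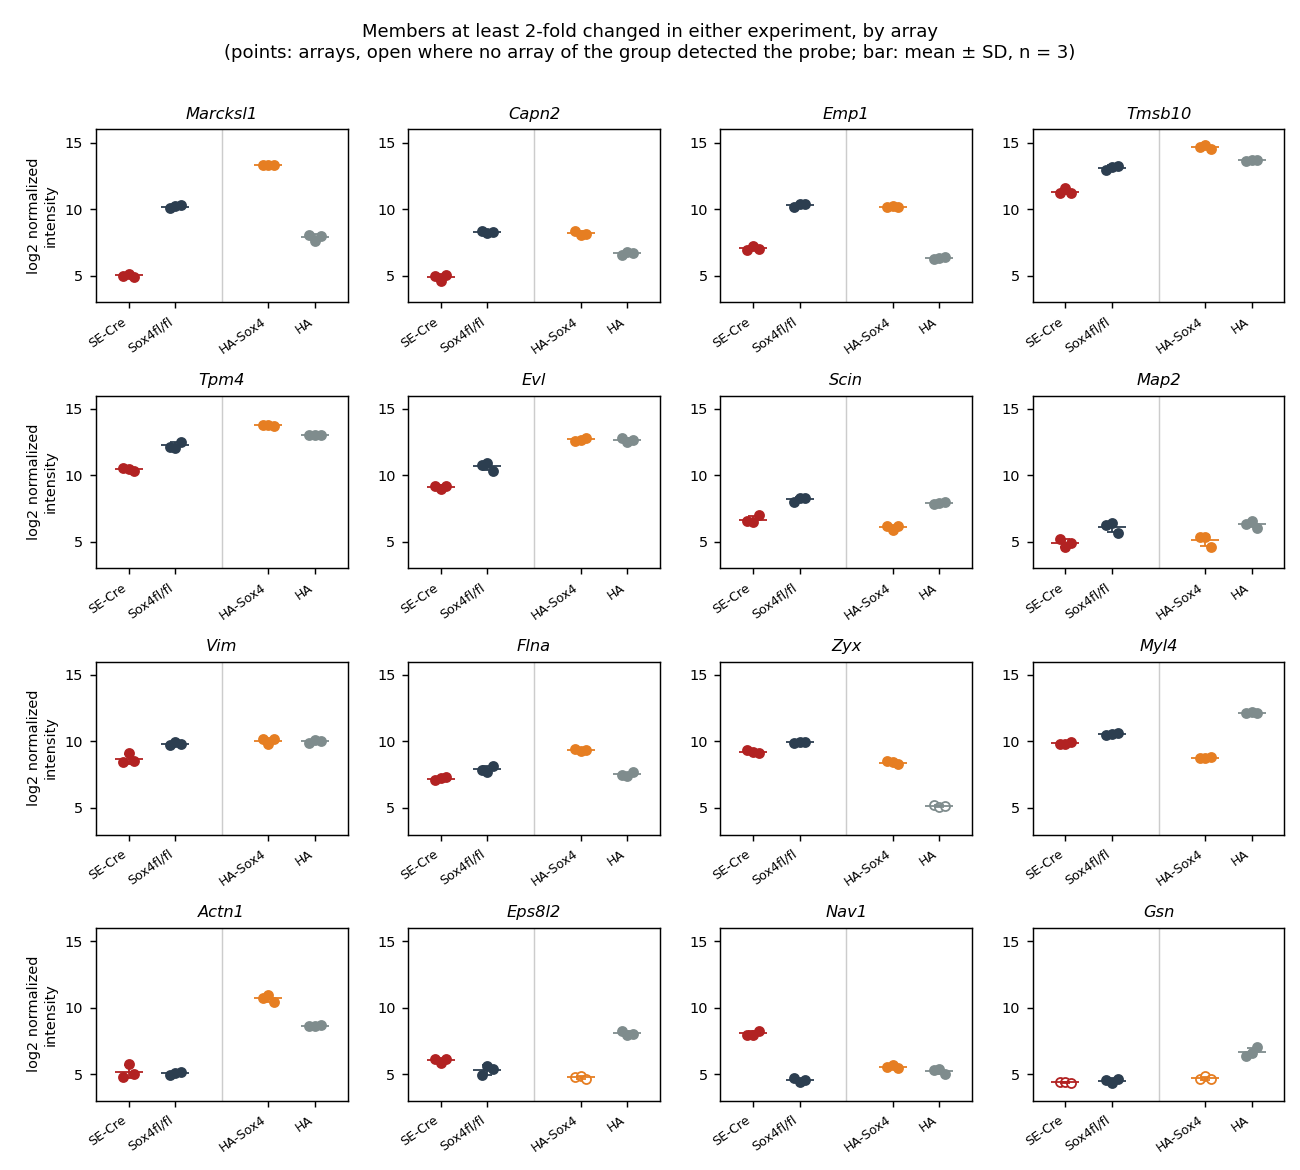
Log2 normalized intensity on each array for the 16 members that passed with at least a 2-fold difference in either experiment, for SE-Cre, Sox4fl/fl, HA-Sox4 and HA cells. Points are arrays, open where no array of the group detected the probe, and bars give the mean ± SD (n = 3). The SE-Cre points of Marcksl1, Capn2 and Emp1 lie far below the Sox4fl/fl points, and the HA points of Zyx are open.

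Both catalytic calpain subunits fell in SE-Cre cells and rose in HA-Sox4 cells. Capn2, the large subunit of m-calpain, read 4.97, 4.60 and 5.06 in SE-Cre cells, against 8.34, 8.21 and 8.31 in Sox4fl/fl cells, a 10.7-fold fall (log2 difference -3.41, SE 0.16, adjusted p = 2.85e-08 in limma). In HA-Sox4 cells it read 8.34, 8.10 and 8.17, against 6.55, 6.80 and 6.69 in HA cells, a 2.87-fold rise (log2 difference 1.52, SE 0.11, adjusted p = 4.78e-05). The groups were apart in both, and 4 of 5 probes fell on loss while 3 of 5 rose on gain. The sizes were smaller without background correction (-1.97 and 0.95) and with the mean of all probes (-2.04 and 0.86).

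Capn1, the large subunit of µ-calpain, was not detected on any SE-Cre array and on all 3 Sox4fl/fl arrays, where it averaged 5.21 ± 0.37 (SD, n = 3). Its fall in SE-Cre cells was at least 1.53-fold (adjusted p = 0.00474 in limma; log2 difference -0.32 without background correction). In HA-Sox4 cells it was 1.44-fold higher (log2 difference 0.53, SE 0.08, adjusted p = 0.00216), with a smaller second probe that did not pass. Capns1, the regulatory subunit common to both, had a loss difference of -0.22 (adjusted p = 0.376) and fell by 0.56 in HA-Sox4 cells (SE 0.13, adjusted p = 0.0122).

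All 4 members that sever or cap filaments fell in HA-Sox4 cells, against 22.7% of all genes. On loss 1 of the 3 tested rose and 1 fell, against 7.43% and 8.96% of all genes. The Eps8 gain call was lost in alternatives given below, and Gsn and Eps8l2 were not detected on any HA-Sox4 array. Capg, a capping gene read in another list, rose by 1.67 on gain, while Capza1, Capza2 and Capzb did not pass. Scin, the calcium-dependent severing protein scinderin, read 6.53, 6.46 and 6.98 in SE-Cre cells, against 7.97, 8.33 and 8.30 in Sox4fl/fl cells (log2 difference -1.54, SE 0.17, adjusted p = 6.2e-05 in limma). It read 6.20, 5.92 and 6.16 in HA-Sox4 cells, against 7.88, 7.88 and 7.98 in HA cells (a log2 difference of -1.82, SE 0.10, adjusted p = 1.49e-05). Scin was thus lower in SE-Cre cells than in Sox4fl/fl cells and also lower in HA-Sox4 cells than in HA cells, 2.92-fold and 3.53-fold. Without background correction the gain difference of Scin was -1.0.

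Gsn, gelsolin, the founding severing protein of that family, was not detected on any HA-Sox4 array, where it read 4.62, 4.82 and 4.61, and was detected on all HA arrays at 6.36, 6.61 and 7.0. It was at least 2.91-fold lower in HA-Sox4 cells (adjusted p = 0.000121 in limma). On the loss arrays it was too dim to be tested, with 4.43, 4.38 and 4.34 in SE-Cre cells, against 4.55, 4.29 and 4.65 in Sox4fl/fl cells. Those ranges overlapped, and 2 of the 3 Sox4fl/fl arrays detected the probe.

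Eps8l2, a relative of the capping and bundling protein EPS8, read 4.79, 4.85 and 4.60 in HA-Sox4 cells, with no detection, against 8.24, 7.94 and 8.0 in HA cells. It was at least 7.70-fold lower in HA-Sox4 cells (adjusted p = 1.8e-06 in limma). On loss it read 6.09, 5.82 and 6.14 in SE-Cre cells, all above the 4.90, 5.64 and 5.37 of Sox4fl/fl cells (log2 difference 0.72, SE 0.19, adjusted p = 0.0235, and 0.30 without background correction). Leaving out Sox4fl/fl replicate 1 (adjusted p = 0.0989) or 3 (0.0544) or SE-Cre replicate 1 (0.0713) or 3 (0.0769) ended that loss call, as did no detection filter (0.118) and normalizing all 12 arrays together (0.0502). Eps8 itself had a loss difference of -0.28 (adjusted p = 0.248) and fell by 0.40 in HA-Sox4 cells (adjusted p = 0.0318). The gain call of Eps8 was lost without HA replicate 2 (adjusted p = 0.061) or 3 (0.0887) or HA-Sox4 replicate 2 (0.0892) or 3 (0.0721), under the trend and robust fit (0.0613), without background correction (log2 difference -0.18, adjusted p = 0.0515), with no detection filter (0.0635) and with scaling to a common median (-0.23, 0.284).

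Of actin itself and the 6 members that bind monomers or turn filaments over, 1 passed in each experiment. Of all genes, 16.4% passed on loss and 44.1% on gain. Actb, cytoplasmic beta-actin, read 12.13, 12.28 and 11.99 in SE-Cre cells, against 12.35, 12.48 and 12.41 in Sox4fl/fl cells. Those readings were all lower, but the difference of -0.28 did not pass (95% interval -0.58 to 0.03, adjusted p = 0.226 in limma). In HA-Sox4 cells Actb read 13.99, 13.76 and 13.69, against 13.60, 13.77 and 13.67 in HA cells, which overlapped (log2 difference 0.13, 95% interval -0.12 to 0.38, adjusted p = 0.354). The 5 Actb probes disagreed: 1 other probe was higher on loss, 2 others were lower on gain, and the mean of all probes had the opposite sign in both experiments, 0.16 and -0.20. The probes that passed were dim. On loss the group means were 5.28 in SE-Cre and 4.59 in Sox4fl/fl cells, and on gain they lay between 6.16 and 6.91. The brighter Actb probes passed in neither experiment.

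Tmsb10, thymosin beta 10, which sequesters actin monomers, read 11.20, 11.57 and 11.21 in SE-Cre cells, against 12.96, 13.16 and 13.27 in Sox4fl/fl cells, a 3.5-fold fall (log2 difference -1.81, SE 0.16, adjusted p = 6.25e-06 in limma). On the HA-Sox4 arrays it read 14.69, 14.85 and 14.54, against 13.65, 13.68 and 13.69 in HA cells, a 2.03-fold rise (log2 difference 1.02, SE 0.10, adjusted p = 0.000246). Of its other probes, 1 rose by 1.81 and 1 fell by 0.89 in HA-Sox4 cells, and the mean of all probes gave 0.65. The probe that fell was dim, averaging 5.10 in HA-Sox4 cells, where 1 of 3 arrays detected it, and 5.99 in HA cells. Its paralog Tmsb4x passed in neither, with -0.005 (adjusted p = 0.987) on loss and 0.18 (adjusted p = 0.106) on gain. Neither cofilin (Cfl1), profilin (Pfn1) nor the coronins (Coro1a and Coro1b) passed by their brightest probe, with differences from -0.42 to 0.46 on loss and from -0.21 to -0.05 on gain. The 3 other Coro1a probes and the other Coro1b probe were lower in HA-Sox4 cells.

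Of the 5 members of the Arp2/3 complex and its activators, none passed on loss, against 16.4% of all genes. Their loss differences lay between -0.35 and 0.20. On gain 2 of the 5 passed (40.0%), against 44.1% of all genes. Arpc1b, an Arp2/3 subunit, fell there by 0.46 (SE 0.10, adjusted p = 0.00982 in limma). Wasf2, the WAVE protein that activates the complex, rose by 0.44 (SE 0.08, adjusted p = 0.00413), a call lost with scaling to a common median (0.0710) and with the mean of its probes (0.0532). Arpc2, Arpc5 and Was had gain differences between 0.02 and 0.07.

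Among the proteins that elongate filaments, Evl, an Ena/VASP protein, differed in 1 experiment. It read 9.20, 8.97 and 9.19 in SE-Cre cells, against 10.76, 10.93 and 10.34 in Sox4fl/fl cells, a 2.94-fold fall (log2 difference -1.56, SE 0.17, adjusted p = 4.69e-05 in limma). In HA-Sox4 cells it read 12.60, 12.66 and 12.83, overlapping the 12.83, 12.53 and 12.64 of HA cells (log2 difference 0.03, 95% interval -0.23 to 0.29, adjusted p = 0.856). Its relatives Enah (-0.52 on loss, -0.28 on gain) and Vasp (-0.28 and -0.24) did not pass in either. The formin Diaph1, listed under its older name Diap1, had a loss difference of 0.25 and fell by 0.38 in HA-Sox4 cells (adjusted p = 0.036). That call was lost without HA replicate 1 (adjusted p = 0.0727) or 3 (0.101) or HA-Sox4 replicate 2 (0.0821) or 3 (0.0963), with no detection filter (0.0724), with scaling to a common median (0.245) and with the mean of its probes (0.0563). The Diaph1 gain difference was -0.22 without background correction.

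Of 11 crosslinkers and membrane or adhesion linkers, 6 rose and none fell in HA-Sox4 cells, against 21.3% and 22.7% of all genes, though the calls of Vcl, Lasp1 and Actn4 were lost in alternatives given below. In SE-Cre cells 1 rose and 2 fell, against 7.43% and 8.96% of all genes. Zyx, zyxin, a focal adhesion protein, read 8.49, 8.45 and 8.30 in HA-Sox4 cells, against 5.18, 5.09 and 5.14 in HA cells, which were all without detection, and it was at least 9.06-fold higher (adjusted p = 4.98e-07 in limma; log2 difference 1.69 without background correction). On loss it read 9.32, 9.17 and 9.11 in SE-Cre cells, against 9.86, 9.96 and 9.94 in Sox4fl/fl cells (log2 difference -0.72, SE 0.14, adjusted p = 0.00349). The groups were apart in both experiments.

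Flna, filamin A, which crosslinks filaments and ties them to membrane receptors, read 9.40, 9.24 and 9.38 in HA-Sox4 cells, against 7.50, 7.41 and 7.67 in HA cells, a 3.52-fold rise (log2 difference 1.81, SE 0.10, adjusted p = 1.43e-05 in limma). In SE-Cre cells it read 7.07, 7.22 and 7.31, all below the 7.87, 7.73 and 8.17 of Sox4fl/fl cells (log2 difference -0.72, SE 0.16, adjusted p = 0.00761). Actn1, alpha-actinin 1, another crosslinker, read 10.74, 10.93 and 10.44 in HA-Sox4 cells, against 8.65, 8.59 and 8.68 in HA cells, a 4.18-fold rise (log2 difference 2.06, SE 0.13, adjusted p = 3.12e-05). On loss it read 4.76, 5.72 and 5.0 in SE-Cre cells, spread around the 4.94, 5.06 and 5.14 of Sox4fl/fl cells. Its loss difference was 0.12, with a 95% interval from -0.35 to 0.58 (adjusted p = 0.774).

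Vcl, vinculin, which ties integrin adhesions to actin, was the 1 member higher in both experiments, by 0.79 in SE-Cre cells (SE 0.21, adjusted p = 0.0245 in limma) and by 0.34 in HA-Sox4 cells (SE 0.08, adjusted p = 0.016). Leaving out Sox4fl/fl replicate 1 (adjusted p = 0.103), SE-Cre replicate 1 (0.0502) or SE-Cre replicate 3 (0.0922) ended its loss call, as did no detection filter (0.147) and normalizing all 12 arrays together (0.0514). Its gain call was lost without HA-Sox4 replicate 3 (0.0514) and with scaling to a common median (0.0506). Lasp1, a LIM and SH3 actin-binding protein, rose by 0.34 in HA-Sox4 cells (adjusted p = 0.0333), a call lost without HA replicate 1 (adjusted p = 0.0944) or 3 (0.0923) or HA-Sox4 replicate 2 (0.0832) or 3 (0.0963). It was lost too with no detection filter (0.0683), with scaling to a common median (0.0774) and with the mean of its probes (log2 difference 0.13, adjusted p = 0.344). Actn4, alpha-actinin 4, rose by 0.29 in HA-Sox4 cells (adjusted p = 0.049), a call lost without any 1 of the 6 gain arrays (adjusted p between 0.0514 and 0.134), with no detection filter (0.102), with scaling to a common median (0.0881) and with array weights (0.0535).
Msn and Rdx of the ezrin, radixin and moesin family, Tln1 (talin), Lcp1 (L-plastin) and Tagln2 (transgelin 2) passed in neither experiment. Their differences lay between -0.51 and 0.15 on loss and between -0.35 and 0.18 on gain, and 1 of the 2 other Msn probes tested was lower in HA-Sox4 cells.

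Myosin light chains and tropomyosins, which set and stabilize contractile filaments, moved in different directions. Myl4, a myosin light chain of the atrial and embryonic type, read 8.77, 8.74 and 8.82 in HA-Sox4 cells, against 12.13, 12.23 and 12.13 in HA cells, a 10.4-fold fall (log2 difference -3.38, SE 0.08, adjusted p = 3.14e-07 in limma). It was also lower on loss, at 9.77, 9.78 and 9.99 in SE-Cre cells, against 10.49, 10.53 and 10.61 in Sox4fl/fl cells (log2 difference -0.70, SE 0.14, adjusted p = 0.00466). The groups were apart in both experiments. Tpm4 read 10.52, 10.50 and 10.35 in SE-Cre cells, against 12.14, 12.08 and 12.52 in Sox4fl/fl cells, a 3.46-fold fall (log2 difference -1.79, SE 0.16, adjusted p = 6.28e-06).

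In HA-Sox4 cells Tpm4 read 13.76, 13.79 and 13.71, against 13.01 on each of the 3 HA arrays, a 1.67-fold rise (log2 difference 0.74, SE 0.07, adjusted p = 0.000279 in limma). All 3 Tpm4 probes moved alike. Tpm1 went the other way, 1.79-fold higher in SE-Cre cells (a log2 difference of 0.84, SE 0.15, adjusted p = 0.00214) and 1.67-fold lower in HA-Sox4 cells (log2 difference -0.74, SE 0.08, adjusted p = 0.000383), by both of its probes. Myl6, the light chain of nonmuscle myosin, did likewise, with 0.48 on loss (adjusted p = 0.0454) and -0.55 on gain (SE 0.08, adjusted p = 0.00161). Leaving out Sox4fl/fl replicate 1 (adjusted p = 0.142) or 2 (0.155) or SE-Cre replicate 1 (0.0886), 2 (0.128) or 3 (0.0527) ended its loss call. So did no detection filter (0.0556), normalizing all 12 arrays together (0.0673), scaling to a common median (0.0849) and the mean of its probes (0.0804). Myh9, the heavy chain of nonmuscle myosin, passed in neither (-0.05 and 0.15), nor did the brightest Tpm3 probe (0.05 and 0.06), although another Tpm3 probe was higher on loss and both other Tpm3 probes were lower on gain.

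Beyond actin, the list held an intermediate filament gene and microtubule genes. Vim, vimentin, read 8.45, 9.14 and 8.54 in SE-Cre cells, against 9.71, 9.93 and 9.81 in Sox4fl/fl cells, a 2.15-fold fall (log2 difference -1.11, SE 0.18, adjusted p = 0.00135 in limma). In HA-Sox4 cells it read 10.19, 9.79 and 10.15, overlapping the 9.89, 10.13 and 9.998 of HA cells (log2 difference 0.04, 95% interval -0.27 to 0.35, adjusted p = 0.831). Map2, a microtubule-associated protein best known from neurons, was lower in both experiments.

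Map2 read 5.20, 4.65 and 4.88 in SE-Cre cells, against 6.23, 6.44 and 5.66 in Sox4fl/fl cells (log2 difference -1.20, SE 0.21, adjusted p = 0.00185 in limma). It read 5.35, 5.38 and 4.63 in HA-Sox4 cells, against 6.37, 6.56 and 6.06 in HA cells (a log2 difference of -1.21, SE 0.23, adjusted p = 0.00524). The groups did not overlap, but the probe was dim, and without background correction the differences were -0.49 and -0.44. Of 9 Map2 probes, it was the only 1 detected on at least 3 of 12 arrays, so both calls rest on it alone. Nav1, a microtubule plus-end protein of the neuron navigator family, was the 1 member at least 2-fold higher on loss. It read 7.96, 7.95 and 8.26 in SE-Cre cells, against 4.67, 4.42 and 4.52 in Sox4fl/fl cells, where 1 of 3 arrays detected it (log2 difference 3.52, SE 0.15, adjusted p = 1.46e-08, and 1.90 without background correction, or 2.71 with the mean of its probes). Its 3 tested probes were all higher on loss. On gain it read 5.51, 5.71 and 5.44 in HA-Sox4 cells, against 5.30, 5.35 and 4.98 in HA cells (log2 difference 0.34, 95% interval 0.04 to 0.64, adjusted p = 0.0718).

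**Figure D3:**
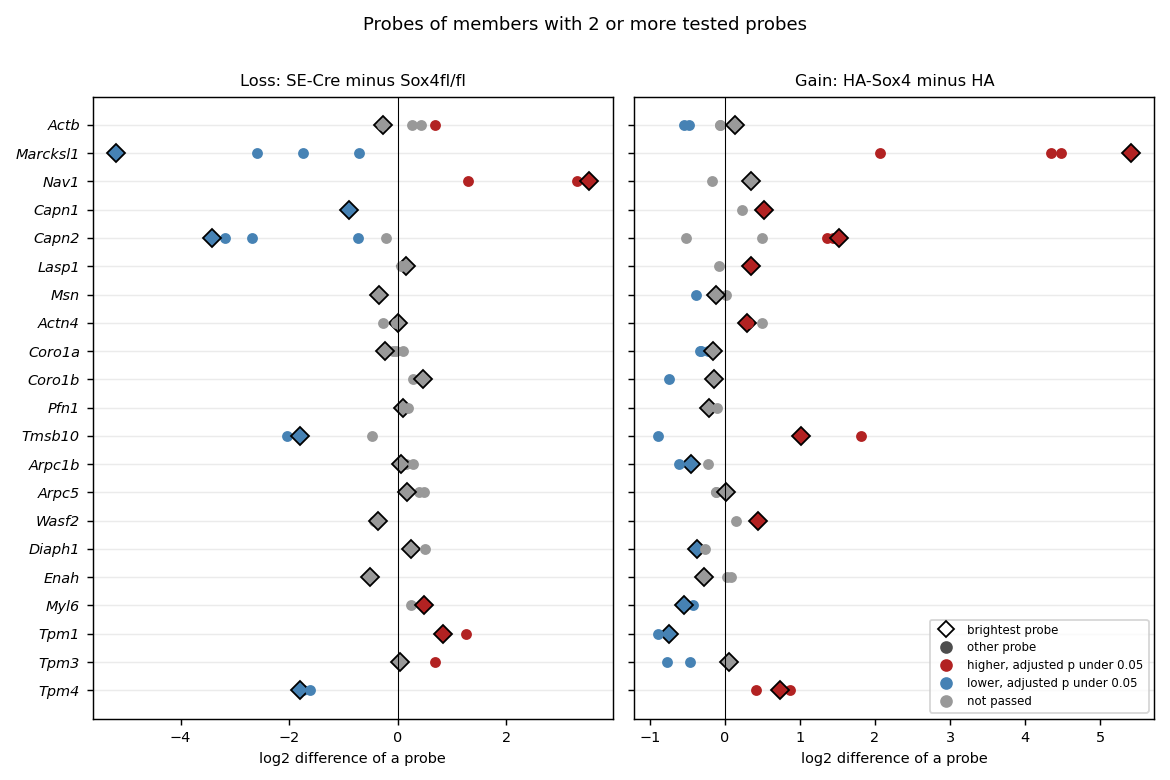
Log2 differences of every tested probe of the members with at least 2 tested probes, SE-Cre minus Sox4fl/fl on the left and HA-Sox4 minus HA on the right, on separate scales. Diamonds mark the brightest probe and circles the others, coloured by direction where the adjusted p was under 0.05, and values of probes without detection in a group are fitted values, not measured sizes. All 4 Marcksl1 probes lie on the same side in each experiment, while Actb, Tmsb10 and Tpm3 have probes on both sides of 0 on gain.

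Set side by side, 15 of the 45 members tested in both experiments passed in both (33.3%), against 11.3% of the 8222 genes tested in both. This share too depends on a list chosen with earlier results of these data known. The experiments share no arrays, but both concern the same manipulated gene, and the gain cells are derived SE-Cre cells. Lower on loss and higher on gain were 8 members, Marcksl1, Emp1, Capn1, Capn2, Zyx, Flna, Tmsb10 and Tpm4, a pattern that 5.57% of all genes had. Higher on loss and lower on gain were Eps8l2, Myl6 and Tpm1 (3.70% of all genes). Lower in both were Scin, Map2 and Myl4 (1.02% of all genes), and higher in both was Vcl (1.06%). The other called members passed on loss alone (Nav1, Vim and Evl) or on gain alone (10 members, among them Gsn, which was not tested on loss).

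**Figure D4:**
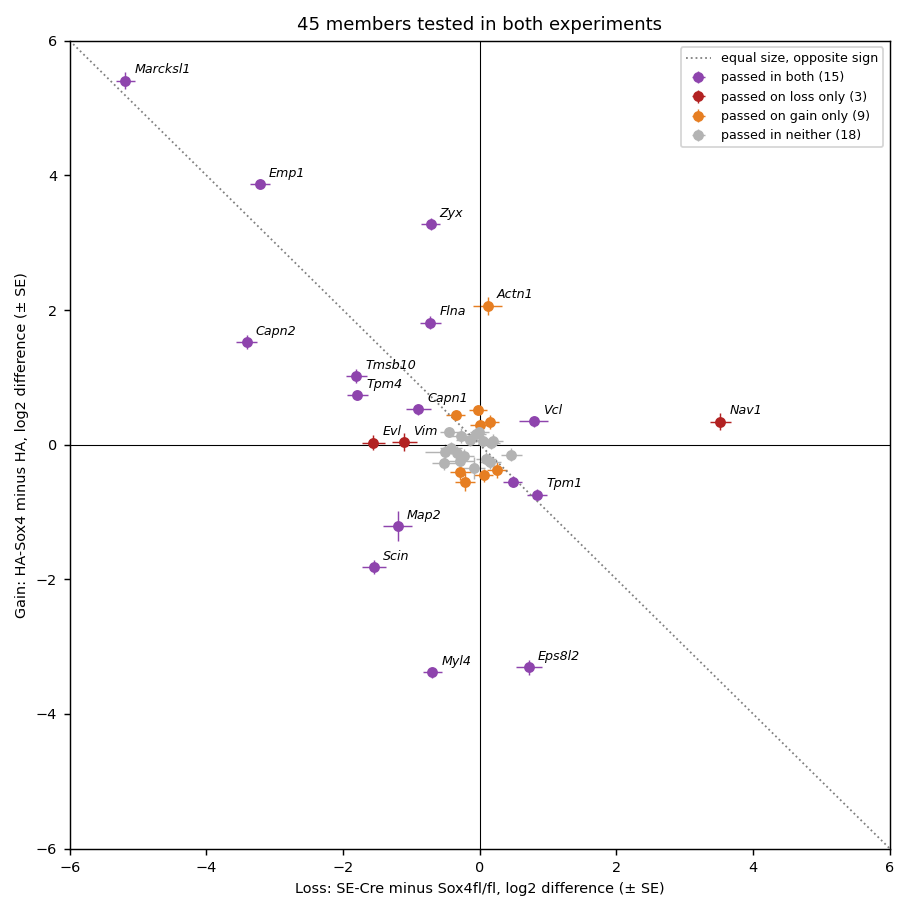
Log2 difference on loss (SE-Cre minus Sox4fl/fl, horizontal) against that on gain (HA-Sox4 minus HA, vertical) for the 45 members tested in both, with standard errors as lines and a dotted line where the differences have equal size and opposite sign. Of these, 15 passed in both, 3 on loss only, 9 on gain only and 18 in neither. Marcksl1 lies near the dotted line, while Myl4, Scin and Map2 lie in the quadrant that is lower in both.

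Whether the loss and gain differences mirrored each other was tested in a joint fit of all 12 arrays, as the sum of the HA-Sox4 minus HA and the SE-Cre minus Sox4fl/fl differences, which is 0 for equal size and opposite sign. Of the 46 members, 22 (47.8%) had a sum that differed from 0, 8 above and 14 below, against 19.9% of all 10259 genes, 10.8% above and 9.09% below. Since the members were chosen with earlier results of these data known, their larger share is descriptive. Marcksl1 had a sum of 0.01 (SE 0.19, adjusted p = 0.984 in limma). With no background correction the Marcksl1 sum was 0.85 (adjusted p = 3.63e-05). The authors' processed values gave a Marcksl1 sum of 1.26 (adjusted p = 1.81e-07). Tpm1 (0.10, adjusted p = 0.745) and Myl6 (-0.07, adjusted p = 0.804) also had sums that did not pass. Capn2 was lower on loss by more than it was higher on gain, with a sum of -2.12 (SE 0.23, adjusted p = 2.1e-05), while the sum of Flna (1.11, SE 0.19) was above 0. The sums of Zyx, Eps8l2, Gsn and Capn1 each rest on a group with no detection, so their size is not measured. The experiments differ in their cells and in their array set, which cannot be told apart in this sum.

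Promoter windows of 250 bases before to 50 after the start were matched for 41 of 46 members, 53 windows in all. AACAAAG, a Sox-type motif, was found on either strand in 2 member windows (Enah and Rdx), and in 5.85% of all 32851 windows. AACAATG, another, was found in the Tpm3 window and in 3.78% of all windows. None of the 12 windows of members lower on loss and higher on gain held either motif, nor the CArG box. At the shares of all windows given here, 12 windows are too few to read a result from that absence. The CArG box, the serum response factor motif known from cytoskeletal genes, was found in the windows of Myl6 and Vcl, against 1.63% of all windows. The matches were counted apart for each motif, and a match is a description of letters. Both sites are shown in RefSeq GRCm38.p6, with the box in capitals, since they are the member windows that hold it. The Myl6 site, at chr10:128493040-128493069 on the minus strand, begins its box 50 bases before the start, and the Vcl site, at chr14:20929161-20929190 on the plus strand, 227 bases before.
Myl6: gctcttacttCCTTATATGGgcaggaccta
Vcl: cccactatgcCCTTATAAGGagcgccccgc
Both genes were higher in SE-Cre cells, and on gain Myl6 fell while Vcl rose. Their loss calls and the gain call of Vcl were lost in alternatives given above.

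Other genes of the pathway were read from 4 lists, described beside the share of all genes called. Of 28 other Arp2/3, WAVE, WASP and capping genes, 3 rose and 1 fell on loss (14.3%), near the 16.4% of all genes. The profilin gene Pfn2 rose by 1.04 in SE-Cre cells (SE 0.14, adjusted p = 0.000299 in limma) and fell by 0.86 in HA-Sox4 cells (SE 0.08, adjusted p = 0.000153). Cap1, a monomer-recycling protein, rose by 0.66 on loss. Daam1, a formin of Wnt signalling, fell by 0.87 on loss (SE 0.19, adjusted p = 0.00726) and rose by 1.83 on gain (SE 0.08, adjusted p = 5.99e-06). The Daam1 differences were -0.36 and 1.02 without background correction, and 0.75 on gain with the mean of its probes. Its loss call was lost with the mean of its probes (-0.22, adjusted p = 0.232) and with no detection filter (0.057). Nckap1, a WAVE subunit with no detection in Sox4fl/fl cells, was at least 1.21-fold higher in SE-Cre cells (adjusted p = 0.0397). The Nckap1 call was lost without Sox4fl/fl replicate 1, 2 or 3 (adjusted p between 0.0761 and 0.128), the 3 left-out arrays under which it was still tested, and without background correction (log2 difference 0.16, adjusted p = 0.191). It was lost as well with scaling to a common median (0.102) and with the trend and robust fit (0.0583), while normalizing all 12 arrays together gave 0.75. On gain 8 of 27 rose and 4 fell (44.4%, against 44.1% of all genes), with the capping protein Capg at 1.67 (SE 0.19, adjusted p = 0.000614) and the cortactin relative Hcls1 at 0.59.

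Of 20 other myosin, crosslinker and cortex genes, 1 rose and 2 fell on loss, against 7.43% and 8.96% of all genes. Myl12b, a regulatory light chain, was at -1.09, Myh10, a nonmuscle myosin heavy chain, at 0.98 and the bundling protein gene Pls3 at -0.86. Without background correction the Pls3 loss difference was -0.30. On gain 5 of 23 rose and 4 fell (39.1%, against 44.1% of all genes), with Myh10 at 1.38 (SE 0.12, adjusted p = 0.000147 in limma), the unconventional myosin Myo1f at -1.35 and Pls3 at 0.93. Myo1e, not detected in HA cells, was at least 1.39-fold higher in HA-Sox4 cells. The loss count was 5 without SE-Cre replicate 2 and with the trend and robust fit, and the gain count was 5, 5 and 4 without HA-Sox4 replicate 1, 2 and 3.

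Of 12 protein kinase C and phosphoinositide genes, which act on the membrane binding of MARCKS proteins, 2 rose and 2 fell on loss (33.3%, against 16.4% of all genes) and 3 rose and 5 fell on gain (66.7%, against 44.1%). The kinase genes Prkcq, Prkcd and Prkcb had loss differences of 0.66, -0.58 and -0.47, and Pip5k1b, a phosphoinositide kinase, 0.61. The Prkcq and Pip5k1b differences were 0.32 and 0.26 (adjusted p = 0.0533) without background correction. Leaving out replicate 2 or 3 of Sox4fl/fl, or 1 or 3 of SE-Cre, ended the call of Pip5k1b (adjusted p between 0.0535 and 0.084), as did scaling to a common median (0.0734). That of Prkcd ended when any Sox4fl/fl array or SE-Cre replicate 3 was left out (0.0527 to 0.08). The call of Prkcb was lost without any 1 of the 6 loss arrays (0.0561 to 0.128) and with all 12 arrays normalized together (0.0571). The loss count was 2 with replicate 1 of Sox4fl/fl or of SE-Cre left out, and 1 with Sox4fl/fl replicate 2, Sox4fl/fl replicate 3 or SE-Cre replicate 3 left out. On gain Plcg2, the phospholipase that cleaves phosphoinositides, fell by 1.12 (SE 0.08, adjusted p = 5.12e-05 in limma), the kinase gene Prkca rose by 0.85, or 0.56 with the mean of its probes, and Prkch fell by 0.55. Pip5k1b, not detected in HA-Sox4 cells, was at least 1.75-fold lower there. The gain count was 5 without HA replicate 1, 2 or 3 and with scaling to a common median. None of the genes listed with the serum response and MRTF factors passed, with 3 tested on loss and 2 on gain, against 16.4% and 44.1% of all genes. Of those tested, the factor genes Srf and Mrtfa were detected on 12 and 7 of 12 arrays, and Ccn2, not itself such a factor, on 3.

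The labelled cell type was checked against markers. All 8 measured progenitor B markers were detected on at least 3 arrays, 8 of them on 3 of 3 SE-Cre arrays and 7 on 3 of 3 Sox4fl/fl arrays, where Pax5 was not detected (at least 1.63-fold higher in SE-Cre cells). Ebf1 fell by 0.49 on loss, Il7r fell by 0.39 and Cd93 by 0.56 on gain, and the other 4 passed in neither experiment. Their summed intensity lay between 30821 and 34989 in SE-Cre cells and between 32341 and 34523 in Sox4fl/fl cells. In HA-Sox4 cells it lay between 63186 and 65461, and in HA cells between 65598 and 71757. Of 12 myeloid markers, 4 were detected on at least 3 arrays. Their summed intensity was 679 to 883 in SE-Cre cells and 242 to 322 in Sox4fl/fl cells, and 204 to 240 in HA-Sox4 cells and 1173 to 1227 in HA cells. The lysozyme genes Lyz1 (1.75 on loss, -2.87 on gain) and Lyz2 (1.50 and -2.52) passed in both, and Fcgr3, not detected in HA-Sox4 cells, was at least 1.50-fold lower there. Among the other listed genes, Mpo, Elane, Prtn3, Itgam, S100a8, S100a9 and Cebpa were each detected on fewer than 3 arrays.

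Of 14 stromal and endothelial markers 6 were detected, with summed intensities of 302 to 342 in SE-Cre cells, 525 to 618 in Sox4fl/fl cells, 859 to 966 in HA-Sox4 cells and 512 to 542 in HA cells. Pecam1 fell by 2.80 on loss and rose by 0.43 on gain, Fn1 and Sparc, with no detection in HA cells, were at least 4.68-fold and 3.20-fold higher in HA-Sox4 cells, and Acta2 rose by 0.63 on loss. Col1a1, Col1a2, Col3a1, Cdh5, Kdr and Tek were each detected on fewer than 3 arrays. Of 8 erythroid markers 6 had a probe and 4 were detected, with sums of 1070 to 1388 in SE-Cre cells, 587 to 708 in Sox4fl/fl cells, 1164 to 1489 in HA-Sox4 cells and 3763 to 4317 in HA cells, among them Car2 (1.01 on loss, -1.75 on gain) and Hbb-b2, whose rise in HA-Sox4 cells was at least 1.30-fold with no detection in HA cells, while Hba-a1 and Alas2 were detected on fewer than 3 arrays. Of 8 mast cell and megakaryocyte markers 3 were detected, with sums of 1244 to 1553 in SE-Cre cells, 940 to 1096 in Sox4fl/fl cells, 410 to 438 in HA-Sox4 cells and 223 to 305 in HA cells. Kit rose by 0.48 on loss and by 2.30 on gain, and Mcpt8, not detected in HA-Sox4 cells, was at least 4.07-fold lower there. Pf4, Itga2b, Gp1bb, Cpa3 and Fcer1a were each detected on fewer than 3 arrays. Hepatocyte markers had 1 of 8 detected and none tested, with sums of 19.8 to 26.2 in SE-Cre cells, 18.8 to 29.2 in Sox4fl/fl cells, 33.1 to 44.4 in HA-Sox4 cells and 30.0 to 36.2 in HA cells. T and NK markers had 2 of 10 detected, with sums of 170 to 228 in SE-Cre cells, 204 to 235 in Sox4fl/fl cells, 45.1 to 53.4 in HA-Sox4 cells and 46 to 48.2 in HA cells, and Klrd1 fell by 1.74 on loss. The part of these markers in the members' differences was not tested.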

How the data were processed

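Per the file headers, the authors deposited non-normalized probe intensities of 45281 probes on 12 arrays, whose values were on a linear scale. The authors deposited a detection p-value beside each intensity, per the file headers. They also deposited processed intensities, of which 99.97% (loss) and 99.96% (gain) matched, within 0.01, the values that quantile normalization of the experiment's 6 arrays gave. The submitters' processing notes name R 3.0.1 without a role. For scanner software and bead summarization, nothing was given in the sources used here.

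Within each experiment, neqc (limma 3.58.1, R 4.3.3) subtracted background inferred from the detection p-values, added 16, quantile-normalized the arrays and took log2. Probes with a detection p-value under 0.05 on at least 3 of 6 arrays were fitted with lmFit and eBayes, with Benjamini-Hochberg adjustment over all of them and a threshold of 0.05. The median residual SD was 0.19 on loss and 0.143 on gain. The joint fit normalized all 12 arrays together and kept probes detected on at least 3 of 12. Symbols came from GEO's platform annotation, which can be old, updated to RefSeq: 34885 probes carried 1 symbol, 18 several and 10378 none. The fits were tested on simulated data.

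The members, pathway lists, markers and alternatives were chosen with earlier results of these data known. Values on every array are given for members with at least a 2-fold difference past the threshold in either experiment and for Marcks, Marcksl1 and Actb; other members past the threshold are named with their difference. Of each pathway list, up to 4 genes with the smallest p past the threshold are named; marker genes were named after their values were seen. Of the lists, 1 pathway list and 1 marker are not reported here. Replicate numbers were not used to pair the arrays in the main fits. Deviations from group means correlated between -0.02 and 0.04 for equal numbers, and between -0.03 and 0.02 for different numbers. These correlations cannot show whether equal numbers mark samples prepared together. Alternatives were to omit background correction, to start from the authors' processed values, to drop the detection filter or ask for detection on every array, other normalizations, the trend and robust fit, array weights, a replicate block, each array left out, and the mean of a gene's probes. The files name no slide or scan, so neither was a block.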

Additional observations from a re-analysis of the deposited data

Results flagged for a closer look

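The sum of the HA-Sox4 minus HA and the SE-Cre minus Sox4fl/fl differences, tested in the joint limma fit of 12 arrays, differed from 0 for 22 members, which means that the experiments' differences were not of equal size and opposite sign. Below 0 on the log2 scale were Myl4 at -4.07 (adjusted p = 1.02e-09), Scin at -3.29, Map2 at -2.43, Eps8l2 at -2.21, Capn2 at -2.12, Gsn at -1.88, Evl at -1.56, Tpm4 at -1.20, Vim at -1.08, Enah at -0.91, Tmsb10 at -0.79, Capn1 at -0.79, Capns1 at -0.79 and Eps8 at -0.68. Above 0 were Nav1 at 4.18 (adjusted p = 1.18e-08), Zyx at 2.33, Actn1 at 2.17, Vcl at 1.14, Flna at 1.11, Emp1 at 0.57, Lasp1 at 0.49 and Marcks at 0.49. For Zyx, Eps8l2, Gsn and Capn1 a group was without detection on all 3 arrays, so these are fitted sums whose size is not measured, and without background correction they were 0.84, -1.02, -0.68 and -0.11 (adjusted p = 0.586 for Capn1).

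Of these 22 calls, 6 were lost when an array was left out. The Marcks call (adjusted p = 0.0326) was lost without any array but Sox4fl/fl replicate 1 or SE-Cre replicate 2 or 3 (0.0514 to 0.0834). The Lasp1 call was lost without any array but Sox4fl/fl replicate 2, SE-Cre replicate 3 or HA replicate 2 (0.0569 to 0.11). The Capn1 call was lost without any SE-Cre, HA-Sox4 or HA array (0.0523 to 0.098). The Emp1 call was lost without Sox4fl/fl replicate 1, HA replicate 1 or 2 or HA-Sox4 replicate 2 or 3 (0.0526 to 0.0637). The Enah call was lost without SE-Cre replicate 2, HA replicate 1 or 2 or HA-Sox4 replicate 1 or 2 (0.0503 to 0.0647), and the Eps8 call without HA replicate 3 or HA-Sox4 replicate 2 or 3 (0.0533 to 0.074).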

How the results depend on the processing

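The count of members called on loss was 18 and lay between 15 and 22 over the alternatives, 15 to 17 with an array left out. On gain it was 25, between 19 and 29, and 19 to 24 with an array left out, and for the sum of the differences 22, between 16 and 25, and 16 to 21. Kept in every alternative in which they were tested were 15 of 18 calls on loss, 19 of 25 on gain and 16 of 22 for the sum. Signs turned for Marcks on loss (-0.02), which lay between -0.071 and 0.023 with an array left out, above 0 without Sox4fl/fl replicate 1 (0.01) or SE-Cre replicate 2, and for Actb with the mean of its probes (0.16 on loss, -0.20 on gain), none of which passed the test. The sum of Emp1 was -0.17 without background correction, against 0.08 from the authors' processed values, and that of Capn1 was 0.060 from the authors' processed values, -0.11 on uncorrected intensities and -0.37 with each experiment normalized apart. The sum of Marcksl1 was -0.06 without Sox4fl/fl replicate 1, -0.07 without SE-Cre replicate 2 and -0.12 without HA replicate 2. With an array left out it was at most 0.108, without HA replicate 1. Over all alternatives the Marcksl1 sum reached 1.26, from the authors' processed values. It passed there and without background correction, as given above. The cause was not tested. With the replicate block the counts were 18, 22 and 19; the calls of Myl6 on loss (adjusted p = 0.0688), of Actn4 (0.0599), Diaph1 (0.0761), Eps8 (0.0538) and Lasp1 (0.0514) on gain, and of Marcks (0.0732), Capn1 (0.0559), Enah (0.053) and Lasp1 (0.0812) for the sum were lost, as were those of Nckap1 (0.0577) and Prkcb (0.0577) on loss. Differences of dim probes were smaller without background correction. Zyx, Eps8l2 and Gsn on gain and Capn1 on loss had a group without detection and dropped out of 4 alternatives through the filter.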
